A study of Homo sapiens with 6 samples.

Results

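De novo lipogenesis is the building of fatty acids from acetyl-CoA. The 9 genes described here code for its cytosolic enzymes (ACLY, ACACA, ACACB and FASN), for the NADPH-producing malic enzyme ME1, for the transcription factor MLXIPL, and for 3 enzymes of the separate mitochondrial pathway (MCAT, OXSM and MECR). They were chosen by gene symbol for their function, and all 9 had a row among the 12396 named genes of the deposited count table. RNA-seq compared control JHH-4 cells (labelled WT), a human hepatocellular carcinoma line of epithelial-like cells, with the same line made to express more hsa-miR-372-3p by a plasmid that carries the primary transcript of this microRNA. What the control cells carried is not described in the sources used here. Each group held 3 libraries, which the series calls technical replicates, so that every p-value here reflects the spread among libraries of 1 cell line, which may be technical.

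In the cytosol, ACLY splits citrate exported from mitochondria into oxaloacetate and acetyl-CoA. The acetyl-CoA carboxylases ACACA and ACACB add a carboxyl group to make malonyl-CoA, and FASN, a large enzyme that carries all the needed activities on one chain, condenses acetyl-CoA and malonyl-CoA with NADPH into palmitate. Malonyl-CoA also inhibits CPT1A, the entry point of long-chain fatty acids into mitochondrial oxidation, and the liver is a main site of the pathway. Mitochondria run a second route, in which separate proteins do the steps that FASN joins, and whose octanoyl product is the precursor of the lipoate cofactor.

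Of the 9 genes, FASN and ACACA rose, ACLY, ACACB, ME1 and MECR fell, and MLXIPL, MCAT and OXSM did not pass the test (edgeR quasi-likelihood test, Benjamini-Hochberg adjusted p under 0.05 over all 12396 genes). Of all 12396 genes, 54.5% passed, 26.8% rising and 27.7% falling, so a count of 6 of 9 does not set these genes apart. In the same 6 genes the overexpression libraries lay all above or all below the controls in CPM, 2 above and 4 below, which was so for 62.2% of all genes (30.7% above and 31.4% below). All 9 estimated changes were under 1.5-fold. The median log2 fold change of the 9 genes was −0.16, against 0.0013 over all genes, and the median absolute change was 0.29 against 0.22. RNA came from whole cultures, in which a change in how many cells carry a transcript and a change in the amount per cell cannot be told apart.

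Total counts in named genes ran from 46851245 to 60070397 per library, higher in the overexpression libraries. Control replicate 3 lay away from its group on principal component 2 (10.2% of the variance), at −22.01 where controls 1 and 2 had 14.45 and 7.27; without it the same calls were made, 2 genes rising and 4 falling. Of 10 hepatocyte and hepatoma markers, SERPINA1, FGB, KRT8 and KRT18 were measured, of which 3 rose and 1 fell. The summed level was 2312 to 2411 CPM in control and 4713 to 4861 CPM in overexpressing cells, most of it from the keratins KRT8 and KRT18, while SERPINA1, the secreted liver protein, fell from 9.14, 9.53 and 8.28 CPM to 1.77, 2.14 and 1.39 CPM. The others, ALB, APOA1, APOB, TTR, AFP and HNF4A, had no row among the named genes of the count table. Of 11 markers of blood, endothelial, stromal and fat cells, 5 were measured, and 2 of them rose (COL1A1 and PDGFRB). Their summed level was 133 to 155 CPM in control and 210 to 223 CPM in overexpressing cells. COL1A1 rose from 7.09, 4.03 and 3.4 CPM to 62.5, 68.1 and 61.3 CPM. CD68, the highest of the 5, had 134, 139 and 118 CPM in control and 129, 132 and 127 CPM in overexpressing cells. It did not pass the test, nor did CD14 and COL1A2. The part of these shifts in the changes below was not tested.

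The overexpressed microRNA is shown first, because its seed, the stretch that pairs with messenger RNAs, defines the matches sought in the 9 genes. Its mature sequence (RefSeq, GRCh38.p14, chr19:53787931-53787953, plus strand) is printed with bases 2 to 8, the seed, in capitals.
hsa-miR-372-3p: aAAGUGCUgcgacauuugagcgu

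The longest annotated 3′ UTR of each gene (GENCODE 29, GRCh38) was searched for AGCACTT, the match to the seed, for AGCACTTA, the same match followed by A, and for the shorter GCACTTA and GCACTT. Of the 9 genes, 7 held none of these. ACACB held GCACTT and MECR held AGCACTT. The ACACB match is shown with its surroundings, the match in capitals, as an example of a match in a gene that fell.
ACACB 3′ UTR match (chr12:109266465-109266492, plus strand): gaaaatcctggGCACTTctgcagggctg

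Both genes with a match fell, as did ACLY and ME1, whose 3′ UTRs of 902 and 1535 bases held none. Neither FASN (810 bases) nor ACACA (2328 bases), the 2 genes that rose, held a match. Among 12249 genes with a 3′ UTR of at least 30 bases, 40.4% held a match of 6 bases or longer and 21.4% had AGCACTT as their best match, so 2 of 9 is not a high count. The annotated 3′ UTR of OXSM was only 40 bases long.

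Levels were compared between genes on the authors' FPKM, which is scaled to transcript length. In control cells the order ran from ACLY (214 ± 3.50 FPKM, SD, n = 3) and FASN (131 ± 1.39) through ACACA (23.0 ± 0.560) and MCAT (17.8 ± 2.33) to ME1 (10.5 ± 1.02) and MECR (10.4 ± 1.81). OXSM (5.11 ± 0.357), ACACB (2.14 ± 0.185) and MLXIPL (0.360 ± 0.111) followed. ME1 and MECR overlapped in both groups and cannot be ordered, while every other pair of neighbours kept its order in all 3 libraries of each group. ACLY and FASN were thus far above the 3 enzymes of the mitochondrial route, whereas ACACA was only a little above MCAT and ACACB lay below all 3. The order of the means was the same in overexpressing cells.

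**Figure D1:**
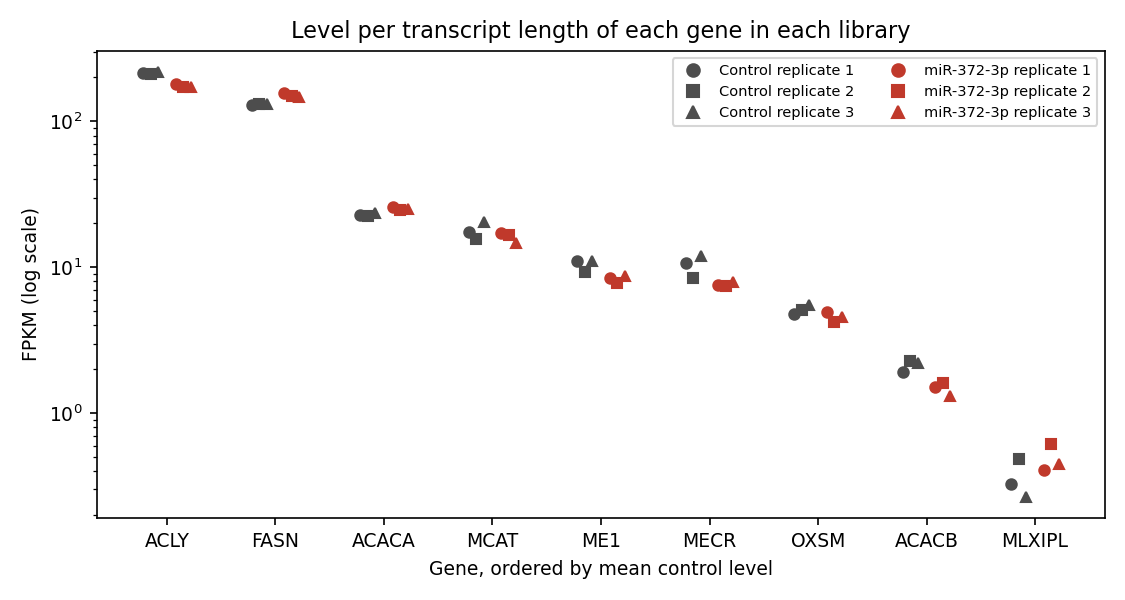
Deposited FPKM (y axis, log scale) of the 9 genes (x axis, ordered by mean control level), with a point for each of the 3 control and 3 miR-372-3p libraries. ACLY and FASN lie above 100 FPKM in every library, and MLXIPL lies under 1 FPKM in every library.

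ACLY (ENSG00000131473, chr17:41866908-41930542, minus strand), the source of cytosolic acetyl-CoA from citrate, fell 1.23-fold. Its normalised count was 1036, 1035 and 1044 CPM in control replicates 1 to 3 and 857, 843 and 838 CPM in overexpression replicates 1 to 3. The groups were far apart, and the controls differed among themselves by under 10 CPM. On the log2 scale the change was −0.30, with a standard error (SE) of 0.031 and a 95% confidence interval (CI) from −0.36 to −0.23; its edgeR adjusted p of 3.32e-05 was the smallest among the 9 genes. An antisense gene, AC125257.2, shares 156 exonic bases with ACLY, and the library kit does not mark strand.

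The acetyl-CoA carboxylases went in opposite directions. ACACA (ENSG00000278540, chr17:37084988-37406818, minus strand), the cytosolic form that feeds FASN, had 240, 239 and 236 CPM in control cells and 261, 258 and 256 CPM with the microRNA. The rise was small, and every overexpression library lay above every control. This came to a log2 fold change of 0.11 (SE 0.032, 95% CI 0.04 to 0.19, edgeR adjusted p = 0.0131). The call was lost without overexpression replicate 1 (edgeR adjusted p = 0.0621) and with limma on log2 FPKM (adjusted p = 0.0569), at log2 fold changes of 0.11 and 0.12.

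ACACB (ENSG00000076555, chr12:109116595-109268226, plus strand), the form tied to the mitochondrial outer membrane, whose malonyl-CoA is held to act on CPT1, was much lower and fell. It had 14.3, 16.1 and 15 CPM in control cells and 11.6, 12.4 and 9.90 CPM with the microRNA. The groups did not overlap, although the overexpression libraries spread over a wider relative range than those of ACACA. The drop was 1.34-fold, or −0.42 on the log2 scale (SE 0.098, 95% CI −0.64 to −0.20, edgeR adjusted p = 0.00508). The level of ACACA per length exceeded that of ACACB by 11.9, 9.82 and 10.8 times in the controls. In overexpressing cells the ratio was 17.2, 15.3 and 19.0. The ratio of the 2 forms per length was therefore higher in each overexpression library than in any control. This ratio rests on FPKM, whose implied transcript length for ACACB also differed between the groups. Counts and FPKM implied 6.94 to 7.43 kb in the controls and 7.59 to 7.77 kb in the overexpression libraries. In CPM, which uses no transcript length, ACACA was higher and ACACB lower in each overexpression library than in any control. The part of the implied length in the size of the higher ratio was not tested.

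FASN (ENSG00000169710, chr17:82078333-82098332, minus strand), the fatty acid synthase, rose 1.15-fold. It had 1247, 1282 and 1256 CPM in control cells and 1483, 1452 and 1402 CPM with the microRNA. The lowest overexpression library lay above the highest control by more than the whole range of the controls. In log2 units the rise was 0.20 (SE 0.034, 95% CI 0.12 to 0.27, edgeR adjusted p = 0.000891). With ACLY falling and FASN rising, the ratio of ACLY to FASN per length went from 1.63 ± 0.0269 (SD, n = 3) in control to 1.16 ± 0.0200 (SD, n = 3) in overexpressing cells, and the groups did not overlap. The ratio of FASN to ACACA moved far less, from 5.71 ± 0.137 to 6.04 ± 0.128 (SD, n = 3 each). Because ACLY, FASN and ACACA moved in both directions, their joint share of all counts in named genes hardly moved, at 0.253 to 0.257% in the controls and 0.250 to 0.260% in the overexpression libraries.

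**Figure D2:**
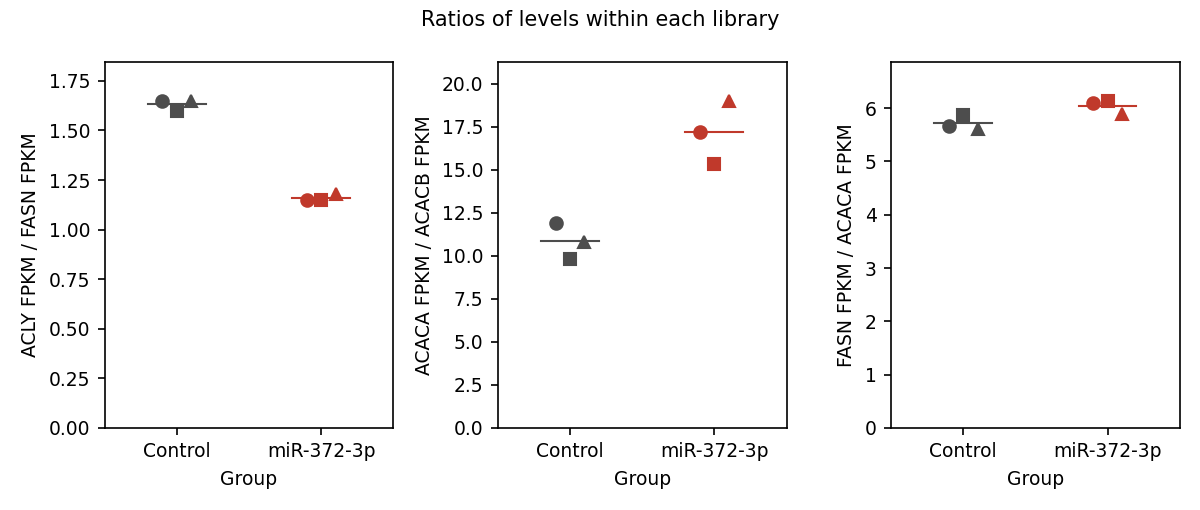
Ratio of FPKM values (y axes, from 0) of ACLY to FASN, ACACA to ACACB and FASN to ACACA within each library, by group (x axes); circles, squares and triangles are replicates 1, 2 and 3, and lines are group means. ACLY to FASN is 1.60 to 1.65 in control and 1.15 to 1.18 in overexpressing cells.

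ME1 (ENSG00000065833, chr6:83210389-83431071, minus strand), the cytosolic malic enzyme that turns malate into pyruvate and gives NADPH, fell 1.26-fold. It had 42.0, 35.7 and 41.6 CPM in control cells and 31.7, 29.9 and 32.9 CPM with the microRNA. Control replicate 2 was the low control but still lay above all 3 overexpression libraries. Its log2 fold change was −0.34 (SE 0.070, 95% CI −0.49 to −0.18, edgeR adjusted p = 0.00262).

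MLXIPL (ENSG00000009950, chr7:73593194-73624543, minus strand), also called ChREBP, switches on glycolytic and lipogenic genes when glucose is plentiful. It was barely expressed, with 58, 62 and 48 counts in control cells and 89, 84 and 68 with the microRNA, or 1.24, 1.33 and 0.989 CPM against 1.48, 1.66 and 1.21 CPM. The groups overlapped. The estimate of 0.29 in log2 units had a wide interval (SE 0.219, 95% CI −0.20 to 0.78, edgeR adjusted p = 0.283), so that neither no change nor a rise of over 1.5-fold lies outside it. Leaving out 1 library moved it between 0.18, without control replicate 3, and 0.41, without overexpression replicate 3, with 0.19 without overexpression replicate 2. The FPKM of MLXIPL is less certain than its count, because the transcript length that counts and FPKM imply was 3.60 to 3.76 kb in 3 libraries and 2.68 to 2.74 kb in the other 3.

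**Figure D3:**
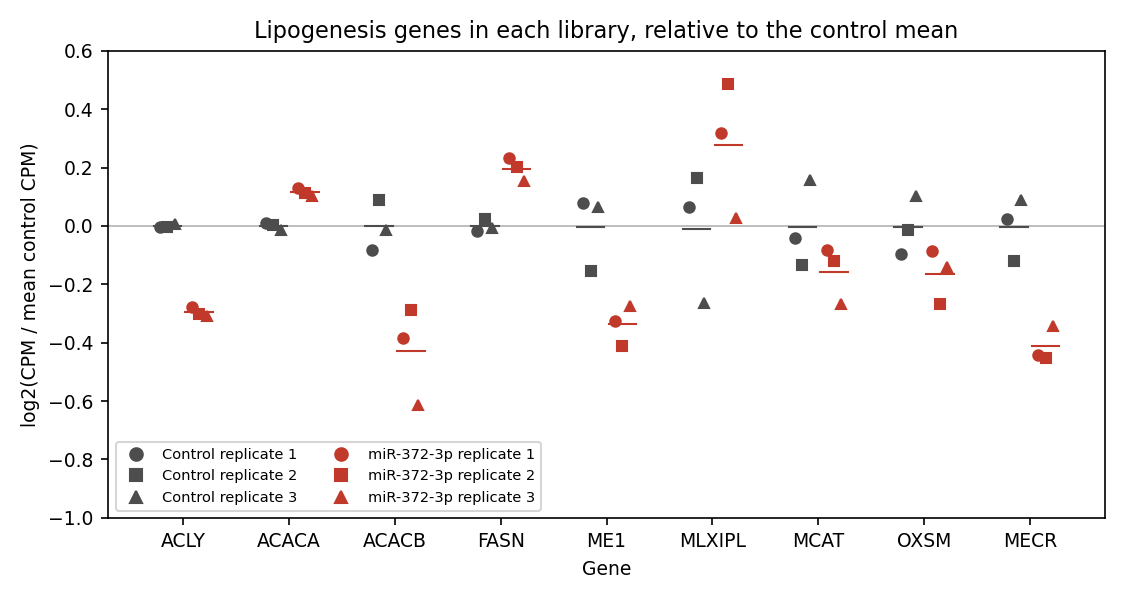
log2 of each library's CPM over the mean control CPM (y axis) for the 9 genes (x axis); symbols are the 3 libraries of each group and short lines the group means. Overexpression libraries lie below all controls for ACLY, ACACB, ME1 and MECR, above them for ACACA and FASN, and overlap the range of the controls in part for MLXIPL, MCAT and OXSM.

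Of the 3 enzymes of the mitochondrial route, 1 passed the test. MECR (ENSG00000116353, chr1:29192873-29230942, minus strand), the reductase of its last step, had 23.2, 21 and 24.3 CPM in control cells and 16.8, 16.7 and 18.0 CPM with the microRNA. The groups did not overlap, and the overexpression libraries lay close together. MECR thus fell 1.33-fold, a log2 change of −0.41 (SE 0.074, 95% CI −0.58 to −0.25, edgeR adjusted p = 0.00107). On FPKM the controls were more scattered, at 10.7, 8.45 and 12.0, and still above the 7.59, 7.46 and 7.91 of the overexpression libraries.

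MCAT (ENSG00000100294, chr22:43132206-43143394, minus strand), which loads malonate onto the mitochondrial acyl carrier protein, had 35.2, 33.0 and 40.4 CPM in control cells and 34.2, 33.3 and 30.1 CPM with the microRNA. The groups overlapped, with control replicate 3 the highest library. Its log2 fold change was −0.16 (SE 0.080, 95% CI −0.33 to 0.02, edgeR adjusted p = 0.127). That value was −0.07 without control replicate 3, and −0.21 without control replicate 2, where the test was passed (edgeR adjusted p = 0.0362). Without overexpression replicate 3 it was −0.10.

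OXSM (ENSG00000151093, chr3:25782917-25794534, plus strand), the condensing enzyme of the mitochondrial route, had 7.75, 8.20 and 8.90 CPM in control cells and 7.80, 6.88 and 7.51 CPM with the microRNA, and the groups overlapped. The estimate was −0.16 in log2 units (SE 0.104, 95% CI −0.40 to 0.07, edgeR adjusted p = 0.215). Its counts are uncertain, because NGLY1 on the opposite strand shares 536 exonic bases with it and the kit does not mark strand. For MCAT and OXSM the intervals still hold drops as large as that of ACLY.

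**Figure D4:**
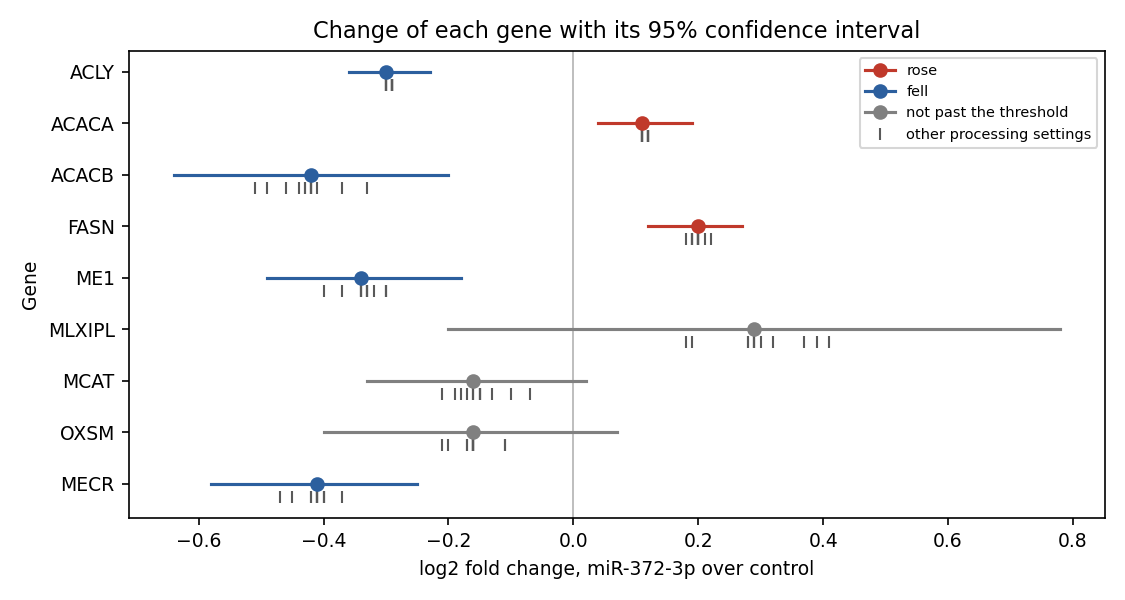
log2 fold change of miR-372-3p over control (x axis) of the 9 genes (y axis), with points for the edgeR estimate, bars for its 95% confidence interval and ticks below for the estimates under the other processing settings. The intervals of ACLY, ACACB, ME1 and MECR lie below 0, those of ACACA and FASN above 0, and those of MLXIPL, MCAT and OXSM include 0.

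In the authors' deposited table, the same 6 genes had a p under 0.05, and the deposited log2 fold changes of the 9 genes differed from those computed here by at most 0.000837.

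Of 19 genes of acetyl-CoA supply, 8 fell and 3 rose (median log2 fold change −0.09), where 27.7% of all genes tested fell and 26.8% rose. The list mixes enzymes and carriers with kinases and phosphatases of pyruvate dehydrogenase, so these counts do not measure supply. ACSS2, which makes cytosolic acetyl-CoA from acetate, fell (−0.53 ± 0.050, log2 fold change ± standard error), as did the mitochondrial pyruvate carrier subunit MPC1 (−0.82 ± 0.204) and the pyruvate dehydrogenase kinase PDK3 (−0.94 ± 0.181). The 3 that rose were the pyruvate dehydrogenase phosphatase genes PDP1 and PDP2 and the phosphatase regulator PDPR; without control replicate 3, 5 rose. The citrate carrier SLC25A1, which delivers the substrate of ACLY, fell (−0.20 ± 0.061), from 162, 153 and 182 CPM to 150, 142 and 140 CPM. This call was lost without overexpression replicate 2 (edgeR adjusted p = 0.0505) or 3 (edgeR adjusted p = 0.0685) and with limma on log2 FPKM (adjusted p = 0.0648), and the log2 fold change was −0.13 without control replicate 3.

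Of 11 genes that supply cytosolic NADPH or code for the other malic enzymes, 6 fell and 0 rose (median −0.29). Among all genes tested, 27.7% fell and 26.8% rose. ALDH1L1, IDH1, MTHFD1, NADK and PGD did not pass. The transketolase TKT (−0.50 ± 0.034), an enzyme of the pentose phosphate pathway, fell along with ME1. TKT went from 940, 945 and 925 CPM to 674, 671 and 640 CPM. The mitochondrial malic enzyme ME2 fell on counts (−0.32 ± 0.059), while its log2 FPKM change had the opposite sign (0.38, limma adjusted p = 0.325).

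Regulators went both ways. Of 16 measured transcriptional regulators of lipogenesis, 6 rose and 3 fell (median 0.05), where 26.8% of all genes rose and 27.7% fell. SREBF1, whose protein activates FASN, ACACA and ACLY in the liver, fell from 154, 163 and 158 CPM to 92.8, 86.3 and 88.6 CPM (−0.83 ± 0.043), while the transcripts of FASN and ACACA rose and that of ACLY fell. USF2 fell (−0.47 ± 0.064) and FBXW7, part of the ubiquitin ligase that marks nuclear SREBP for breakdown, rose (0.83 ± 0.074). MLX, the partner protein of MLXIPL, fell (edgeR adjusted p = 0.000372). MLXIP, a relative of MLXIPL, rose from 99.3, 96.4 and 90 CPM to 111, 114 and 105 CPM (edgeR adjusted p = 0.00581). The others of the 6 that rose were SREBF2 (0.13 ± 0.035), MBTPS1 (0.13 ± 0.038), NR1H2 (0.25 ± 0.046) and RXRA (0.40 ± 0.094). The number that rose was 4 without overexpression replicate 1 and 5 without overexpression replicate 2. Of 13 genes listed as MLXIPL targets, 6 were measured, of which 5 fell and 0 rose (median −0.55), where 27.7% of all genes fell. GPD1 (−1.01 ± 0.170), TXNIP (−0.97 ± 0.142) and PNPLA3 (−0.65 ± 0.085) were lowest, and KHK passed narrowly (edgeR adjusted p = 0.0475). The number that fell was 4 without control replicate 3 or any 1 overexpression library. It was also 4 with the unnamed rows, the replicate block or limma on log2 FPKM. This target list leaves out the lipogenesis genes described above, of which FASN and ACACA rose and ACLY, ACACB, ME1 and MECR fell. Whether MLXIPL acts on the listed or the left-out genes in these cells was not tested.

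AMPK switches off the acetyl-CoA carboxylases by phosphorylation. Among 15 genes of AMPK and of carboxylase control, 6 rose and 5 fell (median −0.02), where 26.8% of all genes rose and 27.7% fell. The catalytic subunit gene PRKAA1 fell 1.62-fold (−0.70 ± 0.049), as did the regulatory subunit gene PRKAG1 (−0.38 ± 0.050), whereas PRKAB1 rose (0.37 ± 0.067). MLYCD, which breaks malonyl-CoA down again, rose from 7.11, 8.22 and 7.43 CPM to 9.51, 9.32 and 9.67 CPM (0.32 ± 0.096). Its call was lost without control replicate 1 (edgeR adjusted p = 0.0684) or overexpression replicate 3 (edgeR adjusted p = 0.0530) and with limma on log2 FPKM (adjusted p = 0.0854). CPT1A, the enzyme that malonyl-CoA inhibits, fell from 68.1, 62.4 and 63.3 CPM to 22.4, 20.6 and 23.5 CPM (−1.54 ± 0.060).

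Both carboxylases need biotin, and both FASN and the mitochondrial carrier protein need a phosphopantetheine arm. Of 8 genes for attaching these cofactors or for the related biotin carboxylases, 2 rose and 3 fell (median −0.10). Over all genes tested, 26.8% rose and 27.7% fell. HLCS, which joins biotin to the carboxylases, fell (−0.35 ± 0.066), as did BTD, which recycles biotin (−0.69 ± 0.114), and the vitamin transporter SLC5A6 rose (0.30 ± 0.045). Of 8 other measured genes of mitochondrial fatty acid synthesis and lipoylation, 1 fell and 1 rose (median 0.10), against those same shares. HSD17B8, a subunit of the ketoacyl reductase that acts between OXSM and MECR, fell from 8.92, 10.1 and 10.3 CPM to 4.80, 3.76 and 3.82 CPM (−1.24 ± 0.131). ACSF3, which makes mitochondrial malonyl-CoA, rose (0.27 ± 0.093), a call lost without control replicate 1 (edgeR adjusted p = 0.0905), control replicate 2 (edgeR adjusted p = 0.0765) or overexpression replicate 2 (edgeR adjusted p = 0.109) and with limma on log2 FPKM (adjusted p = 0.119). Without control replicate 3, 2 of these 8 mitochondrial genes rose.

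In a list of 13 genes of desaturation, elongation and acyl-CoA synthesis, 10 fell and 1, ELOVL3, rose (median −0.53). Of all genes tested, 27.7% fell and 26.8% rose. The list is not limited to enzymes that act on palmitate or its products. The call of ELOVL3 was lost without control replicate 1, overexpression replicate 1 or overexpression replicate 2. ACSL1 (−1.09 ± 0.096), ACSL4 (−0.89 ± 0.052) and FADS2 (−0.84 ± 0.050) fell most. The desaturase SCD, which acts on the products of FASN, fell 1.09-fold (edgeR adjusted p = 0.0121, and 0.0512 without control replicate 1), and the palmitate elongase ELOVL6 did not pass (edgeR adjusted p = 0.881, 95% CI −0.11 to 0.13).

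**Figure D5:**
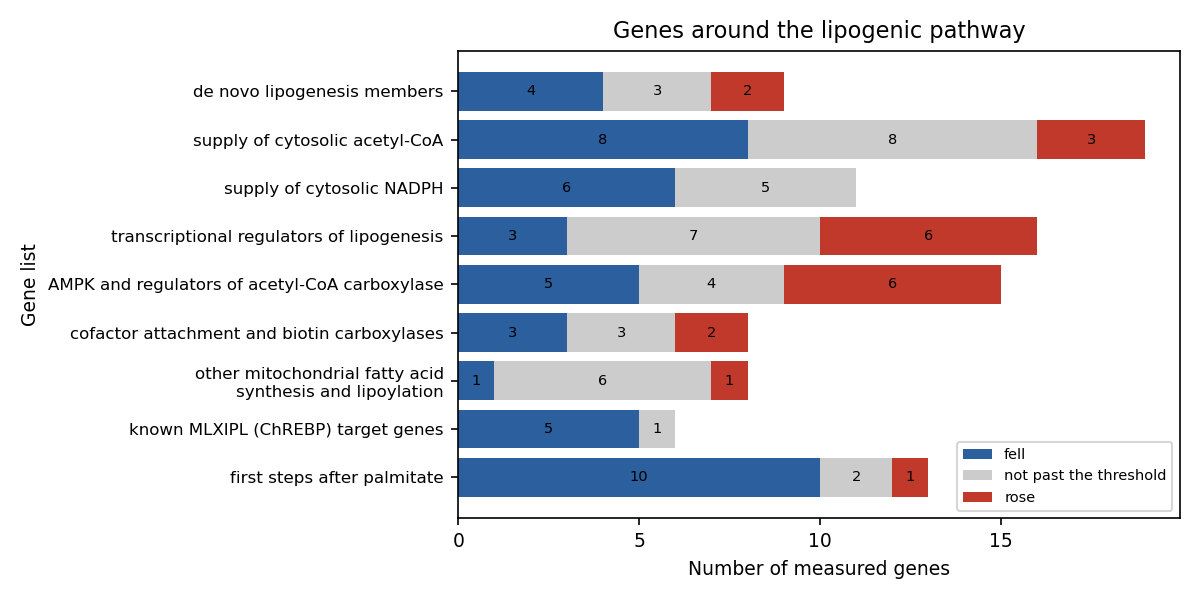
Number of measured genes (x axis) that fell, did not pass the threshold or rose in each gene list (y axis), by the edgeR test. In the list labelled first steps after palmitate, which is not limited to enzymes acting on palmitate, 10 of 13 genes fell. Among the 9 lipogenesis genes 4 fell and 2 rose. Over all genes tested, 27.7% fell and 26.8% rose.

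Likeness to FASN over the 6 libraries was measured as Pearson's r of log2(CPM + 0.1) and is a description, since any 2 genes that differ between the groups correlate over these libraries. The nearest genes were ENSG00000285629 (0.9997), OR51B5 (0.9993) and CRBN (0.9970). Among the 9 genes, ACACA was nearest to FASN (0.9777), and MECR (−0.9744), ACLY (−0.9500) and ME1 (−0.9307) ran opposite to it.

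Promoter sequences from RefSeq (GRCh38.p14), each from 250 bases before to 50 bases after an annotated start, were at hand in 12 windows for 7 of the 9 genes; FASN and OXSM were the exceptions. CACGTG, the E-box core that MLXIPL and USF proteins can bind, was found in 0 of the 12 windows and in 7.26% of all promoters. CCAAT or its complement ATTGG, the core bound by NF-Y, was found in 5 windows, of ACLY (2 overlapping windows), ACACA (2) and ACACB (1), and in 34.6% of all promoters. GGGCGG or its complement CCGCCC, a core bound by Sp1, was found in 10 windows, which count the overlapping pair of ACLY and a pair of MCAT shifted by 1 base that share a single match, and in 45.0% of all promoters. Among promoters of the tested genes, 9.32% held the E-box core, 35.2% the CCAAT core and 65.2% the GGGCGG core. The CCAAT matches of ACLY, which fell, and one of ACACA, which rose, are shown because both genes are known SREBP targets, with the motif in capitals on the gene's strand.
ACLY (chr17:41919072-41919098, minus strand): gccagcagcgaATTGGgaggagccctg
ACLY (chr17:41919030-41919056, minus strand): aacgcgtgtggCCAATcgcggggccgt
ACACA (chr17:37359307-37359333, minus strand): gccgccctcccATTGGctgccgctgag

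The CCAAT core, found in 35.2% of promoters of tested genes, stood here in genes that changed in opposite directions. Its part in the changes was not tested. These matches are letters in a window and were not tested for binding.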

How the data were processed

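One deposited table of 6 JHH-4 libraries (3 control, 3 overexpressing miR-372-3p) was used, grouped by sample titles; 0 per-sample columns lacked a sample. Per the file headers, the authors give read counts and FPKM per library, and for the comparison a log2 fold change with its p-value. Libraries were made with a NEBNext Ultra RNA kit, per the labels' protocols. The submitters' processing notes name GRCh38, HISAT2 2.0.4, StringTie 2.2.1 and DESeq2 1.38.3; how reads were counted is not stated there. The FPKM values, scaled by the authors to length and depth, served for levels and ratios between genes, which were also compared between the groups. They also served for the MECR levels by group, the implied transcript lengths and an alternative test.

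Of 14006 rows, 12396 carry an Ensembl gene ID; the other 1610, with 2.64 to 3.63% of counts, were kept out. No row has fewer than 208 counts in all, so weakly expressed genes are not analysed here; the lowest of the 9 genes has 409, and 0 genes were removed by filterByExpr. The test was that of edgeR 4.0.16 (R 4.3.3; TMM, quasi-likelihood F-test, Benjamini-Hochberg over 12396 genes, threshold 0.05), and the script was tested on simulated data. Errors and 95% intervals come from that fit. CPM is per 1000000 reads of the TMM-scaled library. No 2 libraries of a group agreed within sampling noise (chi-square over its degrees of freedom 6.86 to 38.6). Alternatives used RLE and upper quartile factors, DESeq2 1.42.0, other filters, the unnamed rows, a replicate block, each library left out, and, chosen after seeing the data, limma 3.58.1 on log2(FPKM + 0.1). From each other gene list, the text names up to 3 genes past the threshold with the largest change; SLC25A1, MLX, MLXIP, MLYCD, SCD and ELOVL6, and the genes named to explain a count, were chosen after their values were seen. The 9 genes and all lists were chosen with earlier results of these data known. A gene of the NADPH list and the sequence around the MECR match are not reported here.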

Additional observations from a re-analysis of the deposited data

How the results depend on the processing

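FASN, ACLY, ACACB, ME1 and MECR kept their direction and their side of the threshold in all 14 alternatives, with log2 fold changes of 0.18 to 0.22, −0.30 to −0.29, −0.51 to −0.33, −0.40 to −0.30 and −0.47 to −0.37 and highest adjusted p of 0.00888, 0.000763, 0.0186, 0.0151 and 0.0212. The count of lipogenesis genes that rose was 1 with limma on log2(FPKM + 0.1) and 1 to 2 when a library was left out, ACACA being the gene lost; the count that fell was 4 to 5, MCAT being the gene gained. Over all genes, leaving out a library gave 2800 to 3546 that rose and 2961 to 3553 that fell. ME2 reversed on FPKM (0.38). With the replicate block, 2 of the 9 genes rose and 4 fell, and 3381 and 3428 of all genes; same-numbered libraries did not deviate together in all 3 pairs (correlations −0.136, −0.052 and 0.103), so the number is not taken to pair them. The filter at a mean of 5 CPM removed MLXIPL, which has no value there. It left 3 listed targets of MLXIPL that fell and 0 genes of desaturation, elongation and acyl-CoA synthesis that rose, because fewer genes were tested. No scaling moved the median gene by over 0.01 log2 units. Depth limits MLXIPL most, at 48 to 89 counts per library.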
